A study of Mus musculus with 6 samples.

Results

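The DNA replication and S-phase entry genes form a set of 49 genes, chosen by name for their known part in copying the genome. The set covers origin licensing, the replicative helicase, the sliding clamp and its loader, the polymerases, single-strand binding and Okazaki fragment maturation, nucleotide supply, the E cyclins and E2F factors that open S phase, and chromatin at the fork. Each gene was read from the microarray probes annotated with its symbol alone, and where several probes qualified the one with the highest mean over the 6 arrays was used. Of the 49 genes, 48 had such a probe, among 18193 genes with one on the array. Chaf1a was not analysed here. All 48 passed the filter on dim genes (a mean log2 level of at least 5.19, an intensity of 30.8), which left 10916 genes for testing.

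Thymocytes at 3 stages were compared, with 2 arrays for each. DP cells carry both coreceptors, CD4intCD8+ cells have lost part of their surface CD4, and CD8SP cells carry CD8 alone; the sort used antibodies to CD4 (L3T4) and CD8 (Ly-2). In each group the animals were N15 TCR tg+/+ and RAG-2-/- on the H-2b background and were 5 to 6 weeks old, so that a single transgenic, class I-restricted receptor and the absence of new receptor rearrangement are common to all 3 groups. Per the labels, 6 mice served 2 independent experiments, the promoter that drives the transgene is not named, and no array is tied to animals of its own; p-values therefore cover the spread among these arrays alone.

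An origin is licensed when the origin recognition complex, CDC6 and CDT1 load the MCM ring onto DNA, and it fires when CDC45 and the GINS complex turn that ring into an active helicase. Cyclin E and the E2F transcription factors control entry into S phase, and many genes of this set are textbook E2F targets. Most DP thymocytes are small cells that have left the cell cycle after an earlier burst of division, and positive selection takes a minority of them on to the single-positive stages.

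The promoters of 6 members are shown as examples. Cdc6 had the largest change of the set, Mcm3 and Rfc4 kept their calls under each alternative processing, and Rpa1 had nearly the same mean at all 3 stages. Pola1 and Mcm6 were picked for their differently placed E2F octamers. Prim1, which also kept its call under each alternative, holds no octamer in its window and is not shown. The windows run from 250 bases before to 50 bases after the annotated transcription start and are from RefSeq (GRCm38.p6), read 5′ to 3′ on the gene's own strand. They lie at chr11:98907901-98908200 on the plus strand for Cdc6 and, on the minus strand, at chr1:20820263-20820562 for Mcm3, chrX:93632106-93632405 for Pola1, chr1:128359656-128359955 for Mcm6, chr16:23127681-23127980 for Rfc4 and chr11:75348334-75348633 for Rpa1. Capitals mark an E2F octamer, searched on both strands as TTTCCCGC, TTTGGCGC, TTTCGCGC or TTTGCCGC, with overlaps allowed.
Cdc6: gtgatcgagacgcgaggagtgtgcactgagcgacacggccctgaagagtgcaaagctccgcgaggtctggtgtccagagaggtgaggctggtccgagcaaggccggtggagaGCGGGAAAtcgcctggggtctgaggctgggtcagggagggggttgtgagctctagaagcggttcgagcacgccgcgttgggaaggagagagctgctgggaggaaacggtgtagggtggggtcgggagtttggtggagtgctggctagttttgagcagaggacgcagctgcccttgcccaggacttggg
Mcm3: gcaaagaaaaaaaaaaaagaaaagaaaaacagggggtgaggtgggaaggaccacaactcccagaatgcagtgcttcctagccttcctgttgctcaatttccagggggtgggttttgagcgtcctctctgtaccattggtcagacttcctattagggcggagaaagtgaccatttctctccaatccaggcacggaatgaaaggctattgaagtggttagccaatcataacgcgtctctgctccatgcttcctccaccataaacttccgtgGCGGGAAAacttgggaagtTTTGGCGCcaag
Pola1: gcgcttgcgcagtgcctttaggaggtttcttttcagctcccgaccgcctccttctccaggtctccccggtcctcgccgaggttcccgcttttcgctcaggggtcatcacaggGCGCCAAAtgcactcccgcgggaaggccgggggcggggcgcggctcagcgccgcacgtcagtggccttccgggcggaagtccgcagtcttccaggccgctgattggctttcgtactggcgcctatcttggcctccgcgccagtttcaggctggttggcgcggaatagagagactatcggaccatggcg
Mcm6: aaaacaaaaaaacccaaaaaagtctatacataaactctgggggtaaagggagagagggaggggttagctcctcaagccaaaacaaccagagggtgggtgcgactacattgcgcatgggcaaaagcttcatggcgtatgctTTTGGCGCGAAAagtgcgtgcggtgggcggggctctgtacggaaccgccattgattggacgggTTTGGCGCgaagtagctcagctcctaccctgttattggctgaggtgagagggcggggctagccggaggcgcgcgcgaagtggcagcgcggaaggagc
Rfc4: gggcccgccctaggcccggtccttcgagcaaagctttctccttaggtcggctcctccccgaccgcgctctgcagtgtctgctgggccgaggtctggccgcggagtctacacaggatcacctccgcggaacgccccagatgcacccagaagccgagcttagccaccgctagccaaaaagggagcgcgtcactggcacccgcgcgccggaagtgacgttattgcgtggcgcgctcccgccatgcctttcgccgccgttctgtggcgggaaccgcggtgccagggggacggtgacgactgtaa
Rpa1: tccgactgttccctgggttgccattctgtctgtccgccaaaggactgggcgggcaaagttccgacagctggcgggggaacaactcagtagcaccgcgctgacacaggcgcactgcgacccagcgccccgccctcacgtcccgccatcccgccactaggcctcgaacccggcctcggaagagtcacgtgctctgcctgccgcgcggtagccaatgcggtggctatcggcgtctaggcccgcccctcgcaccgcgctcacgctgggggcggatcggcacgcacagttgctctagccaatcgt

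Counting the start as 0, the Cdc6 and Pola1 octamers both begin at position -138, the former TTTCCCGC and the latter TTTGGCGC, each on the opposite strand. In Mcm3 both octamers lie after the start, at 19 and 38. Mcm6 has TTTGGCGC at -110 and -47 and TTTCGCGC on the opposite strand at -106, so that the octamers at -110 and -106 overlap. Neither Rfc4 nor Rpa1 holds an octamer in this window. Of the 48 measured members, 40 had a promoter entry, with 49 entries in all because some genes have several starts. An octamer was found in 16 of the 49 entries (32.7%), against 3.88% of the 11276 promoters of genes tested on the array and 2.26% of all 32851 promoters of this length. Among members that rose from DP to CD4intCD8+ it was in 13 of 34 entries (38.2%), and among those that were not called in 3 of 15 (20.0%); that difference was not tested. The CCAAT box (CCAAT on either strand) was in 29 of 49 entries (59.2%), against 37.5% for genes tested on the array. Ccne2, Gins1, Gins2, Gins4, Mcm4, Pole, Prim2 and Rfc2 had no entry.

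The replication genes were higher at the CD4intCD8+ stage than in DP cells. Of the 48 members, 34 rose (70.8%) and 0 fell, while 6.86% of all genes tested were called higher and 4.84% lower at this step (limma, adjusted p under 0.05). Of the 34, 17 rose by at least 2-fold. The median log2 change was 0.85 over the 48 members, with a range from -0.22 to 1.86, beside a median of 0.01 over all genes tested. In 44 of the 48 members (91.7%) both CD4intCD8+ arrays lay above both DP arrays, which held for 30.8% of all genes tested. In sorted pools a higher share of cells in S phase and more transcript per cell cannot be told apart.

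**Figure D1:**
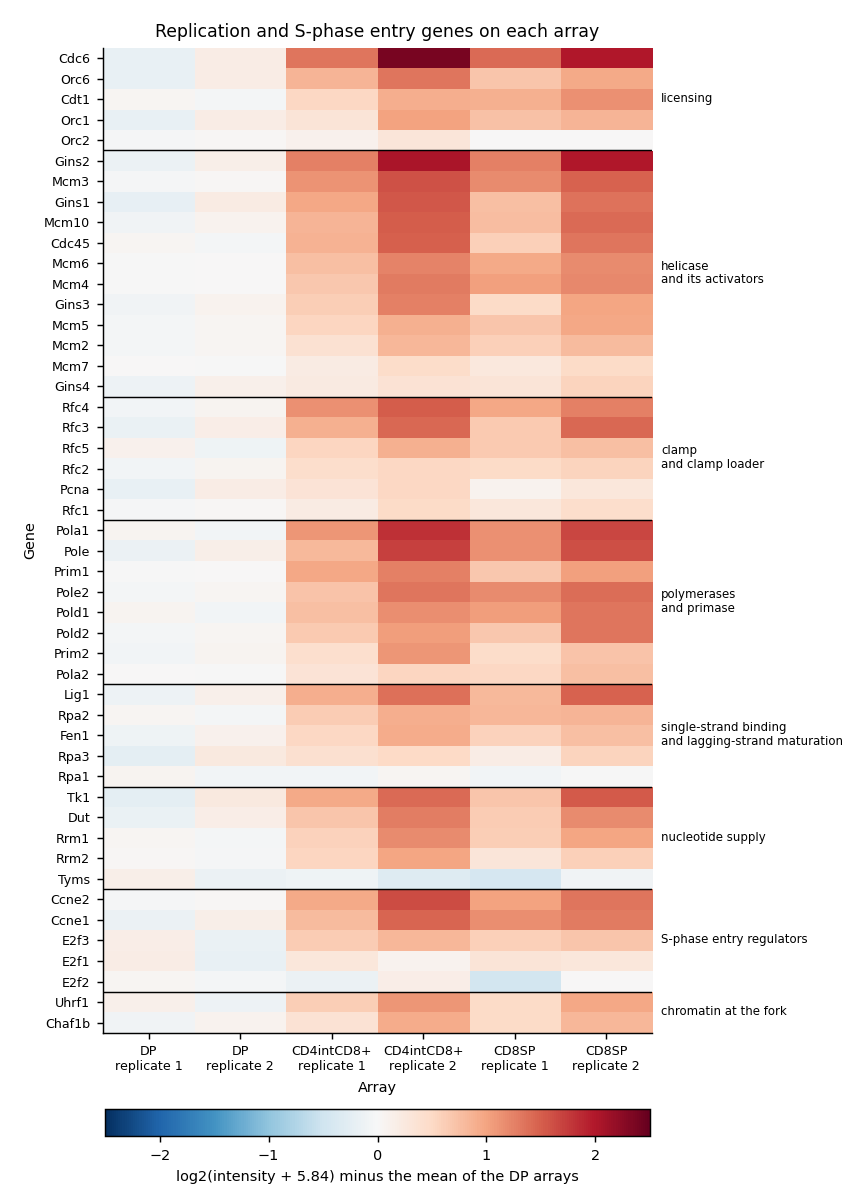
Each row is 1 of the 48 measured genes, ordered by role and by its change from DP to CD4intCD8+, and each column is 1 array; colour gives log2(intensity + 5.84) minus the mean of the 2 DP arrays. The 4 columns after DP are red in nearly all rows, with Rpa1, Tyms, E2f1, E2f2 and Orc2 pale, and replicate 2 is the darker array of both later stages in most rows.

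These calls rested on few arrays. With DP replicate 1 left out, 3 members were called higher (Mcm3, Rfc4 and Prim1; 1.84% of all genes tested), without DP replicate 2 there were 5 (1.02%), and without CD4intCD8+ replicate 2 there were 10 (2.55%); in the first pair of fits the lone DP array is assumed to vary like the other stages. All 34 stayed above DP in each of these fits, and the median log2 change of the 48 members was 0.84, 0.85 and 0.62. With the replicate number as a block, 41 members were called higher and 0 lower, beside 13.3% and 10.1% of all genes tested; the 7 added were Orc1, Mcm7, Pcna, Pola2, Prim2, Rpa3 and Chaf1b.

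Origin licensing genes rose in 3 of 5 members. Cdc6, which loads the MCM ring, had an intensity of 63.4 and 84.7 on DP replicates 1 and 2, 194 and 406 at the CD4intCD8+ stage, then 207 and 312 at CD8SP. All 4 later arrays lay at least 2-fold above both DP arrays, and CD4intCD8+ replicate 2 was the highest. The change from DP to CD4intCD8+ was 1.86 ± 0.32 on the log2 scale (SE; adjusted p = 0.0103), the largest of the set. For Orc6, a subunit of the origin recognition complex, the pairs of values in the same order of stages were 142 and 186, 297 and 418 and 266 and 319, with no overlap between DP and either later stage. Its change was 1.09 ± 0.20 (adjusted p = 0.0116). Cdt1, the partner of CDC6 in loading, read 514 and 478 in DP, 709 and 938 in CD4intCD8+, then 918 and 1098 in CD8SP, so that DP was again below every later array and CD8SP replicate 2 was the highest. It rose by 0.71 ± 0.15 (adjusted p = 0.0204). Orc1 and Orc2, 2 further origin recognition subunits, were not called (changes of 0.66 ± 0.26 and 0.20 ± 0.14); with the replicate block Orc1 was (adjusted p = 0.0422). Without CD4intCD8+ replicate 2 Cdt1 lost its call (adjusted p = 0.117); without DP replicate 1 all of Cdc6, Orc6 and Cdt1 did (0.0788 to 0.0883), and without DP replicate 2 Cdc6 and Cdt1 did (0.0572 and 0.113).

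Of the helicase and its activators, 10 of 12 members rose. Gins2, a subunit of the GINS complex, had intensities of 49.2 and 61.5 in DP, 139 and 246 in CD4intCD8+, then 140.2 and 237 in CD8SP. Replicate 2 was well above replicate 1 at both later stages, yet both replicates exceeded DP. The change from DP to CD4intCD8+ was 1.65 ± 0.30 (adjusted p = 0.0113). Mcm3, a subunit of the MCM ring, gave a tight pair of DP values, 208 and 214, followed by 468 and 643 in CD4intCD8+, then 489 and 597 in CD8SP. Every later array was more than 2-fold above DP, and the change of 1.36 ± 0.17 had the smallest adjusted p of the set (0.00361). Gins1, another GINS subunit, went from 133 and 181 to 310.0 and 467 and stood at 266 and 407 in CD8SP, with DP below every later array. It rose by 1.26 ± 0.25 (adjusted p = 0.0155). The other members called were Mcm10 (1.18 ± 0.27), Cdc45 (1.18 ± 0.27), Mcm6 (0.99 ± 0.16), Mcm4 (0.98 ± 0.19), Gins3 (0.94 ± 0.24), Mcm5 (0.71 ± 0.14) and Mcm2 (0.60 ± 0.16), so that 5 of the 6 MCM ring subunits and 3 of the 4 GINS subunits rose. Mcm7 (0.33 ± 0.11; adjusted p = 0.0894, and 0.0178 with the replicate block) and Gins4 (0.29 ± 0.14; 0.224) were not called, and for both the CD4intCD8+ arrays still lay above the DP arrays. Without CD4intCD8+ replicate 2 the count was 4 of 12, with Mcm2, Mcm5, Mcm10, Cdc45, Gins1 and Gins3 no longer called (adjusted p from 0.0573 to 0.274). Without DP replicate 1 or DP replicate 2 it was 1, Mcm3 in both, and the other 9 had adjusted p-values from 0.0527 to 0.196 and from 0.0595 to 0.125.

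In the clamp and clamp loader group 4 of 6 members rose. Rfc4, a small subunit of the loader that opens the clamp, read 153 and 168 in DP, 359 and 469 in CD4intCD8+, then 320.0 and 391 in CD8SP. Both later stages were clear of DP, with CD4intCD8+ replicate 2 the highest. Its change of 1.33 ± 0.17 (adjusted p = 0.00367) was kept without any 1 array. Rfc3 had values of 64 and 83, 139 and 209 and 118 and 206 in the same order and rose by 1.16 ± 0.27 (adjusted p = 0.0283). For Rfc5 the values were 269 and 233, 365 and 471 and 400.1 and 427, and the change was 0.71 ± 0.15 (adjusted p = 0.021). Neither gene overlapped between DP and the later stages, but in DP replicate 2 was the higher array for Rfc3 and the lower one for Rfc5. Rfc2 rose by 0.47 ± 0.12 (adjusted p = 0.0346), and the large subunit gene Rfc1 was not called (0.35 ± 0.15; 0.15). Pcna, which encodes the clamp itself, had intensities of 2768 and 3554 in DP, 4002 and 4519 in CD4intCD8+, then 3339 and 3829.6 in CD8SP; the CD4intCD8+ arrays were above the other 4. Its change from DP of 0.44 ± 0.12 just missed the threshold (adjusted p = 0.051) and passed it under 7 of the 16 alternatives, the replicate block among them (0.00123). Rfc2, Rfc3 and Rfc5 lost their calls without CD4intCD8+ replicate 2 (adjusted p from 0.112 to 0.193), without DP replicate 1 (0.0719 to 0.171) and without DP replicate 2 (0.0870 to 0.121), and Rfc2 also without CD4intCD8+ replicate 1 (0.0688).

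**Figure D2:**
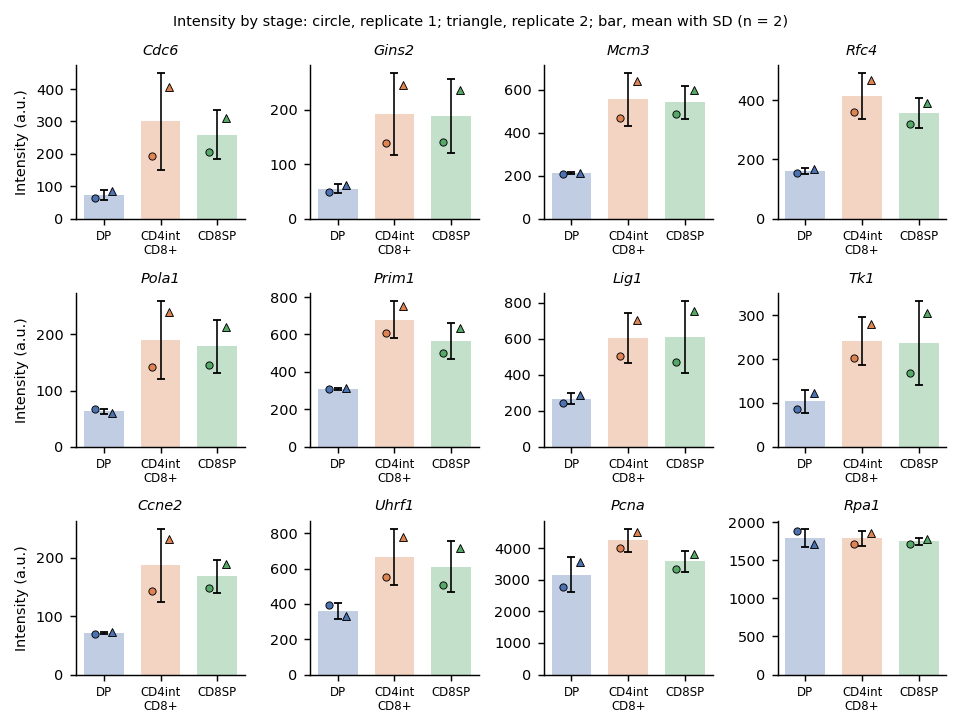
Intensity in arbitrary units for 12 members at DP, CD4intCD8+ and CD8SP; bars are the mean of 2 arrays, error bars the SD, circles replicate 1 and triangles replicate 2. In the first 10 panels all later arrays lie above DP and replicate 2 is the higher of each later pair, Pcna is highest at CD4intCD8+, and Rpa1 stays between 1711 and 1882 on all 6 arrays.

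Polymerase and primase genes rose in 6 of 8 members. Pola1, the catalytic subunit of polymerase alpha that extends primers, had values of 66.4 and 59.9 in DP, 141 and 239.9 in CD4intCD8+, then 146 and 213 in CD8SP. DP was the low stage throughout and CD4intCD8+ replicate 2 the highest array, and the change was 1.47 ± 0.25 (adjusted p = 0.0103). Pole, the catalytic subunit of the leading-strand polymerase epsilon, read 57.1 and 71.1, 116 and 221 and 148 and 206 at the 3 stages in the same order. Again no later array overlapped DP, and the change was 1.26 ± 0.28 (adjusted p = 0.0237). Prim1, the catalytic subunit of primase, gave 307 and 314 in DP, 608 and 751 in CD4intCD8+, then 499 and 635 in CD8SP. The DP pair was close together, and Prim1 rose by 1.11 ± 0.15 (adjusted p = 0.00519), a call that each fit without 1 array kept. Further rises were found for Pole2 (1.02 ± 0.20), Pold1 (0.96 ± 0.18) and Pold2 (0.85 ± 0.22). Prim2 (0.76 ± 0.22; adjusted p = 0.0542) and Pola2 (0.44 ± 0.15; 0.0945) were not called, but were with the replicate block (0.00539 and 0.0398). Prim2 was also called with the filter at the 60th percentile (0.0442) and without CD4intCD8+ replicate 1 (0.00555). Without CD4intCD8+ replicate 2 the count was 2 of 8, with Pole, Pole2, Pold1 and Pold2 no longer called (adjusted p from 0.0562 to 0.172). Without DP replicate 1 or DP replicate 2 Prim1 alone was called, and the other 5 had adjusted p-values from 0.0584 to 0.183 and from 0.0735 to 0.130.

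Among single-strand binding and lagging-strand genes 3 of 5 rose. Lig1, the ligase that joins Okazaki fragments, had intensities of 244 and 289 in DP, 505 and 701 in CD4intCD8+, then 469 and 752 in CD8SP. The lowest later value was above the highest DP value, and the change was 1.15 ± 0.23 (adjusted p = 0.0155). Rpa2, a subunit of replication protein A, which coats single-stranded DNA, read 178 and 165, 270.3 and 327 and 309 and 313, and rose by 0.77 ± 0.14 (adjusted p = 0.0118). Fen1, the flap endonuclease, read 262 and 307, 407 and 548 and 424 and 482, and rose by 0.72 ± 0.17 (adjusted p = 0.0264). In neither did DP overlap a later stage. The other replication protein A subunits were not called in the reported fit. Rpa1 held 1882 and 1711 in DP, 1721 and 1857 in CD4intCD8+, then 1719 and 1784 in CD8SP. Its stages overlapped, with a change of -0.01 ± 0.09 (adjusted p = 0.979). Rpa3 changed by 0.46 ± 0.18 (adjusted p = 0.134; 0.0162 with the replicate block). Lig1, Rpa2 and Fen1 all lost their calls without CD4intCD8+ replicate 2 (adjusted p from 0.0604 to 0.158), without DP replicate 1 (0.0590 to 0.158) and without DP replicate 2 (0.0708 to 0.0790).

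Nucleotide supply genes rose in 4 of 5 members. Tk1, the thymidine kinase of the salvage pathway, had values of 84.9 and 122 in DP, 202 and 281 in CD4intCD8+, then 169 and 305 in CD8SP. Replicate 2 was the higher array at all 3 stages, DP lay below, and the change was 1.18 ± 0.28 (adjusted p = 0.0298). Dut, which removes dUTP, went from 458 and 578 in DP to 840.3 and 1253 in CD4intCD8+, then 799.6 and 1167 in CD8SP, a change of 0.99 ± 0.22 (adjusted p = 0.0249). Rrm1, the large subunit of ribonucleotide reductase, went from 363 and 337 to 527 and 801 and 537 and 703, a change of 0.88 ± 0.20 (adjusted p = 0.0255). No array of the later stages reached down to DP in these genes. Rrm2, the small subunit, rose by 0.76 ± 0.16 (adjusted p = 0.0174) and was 0.45 above DP in CD8SP, where it was not called (adjusted p = 0.0746; 0.0143 with the replicate block). Tyms, thymidylate synthase, was dim, at 59.4 and 48.1 in DP, 49.1 and 41.5 in CD4intCD8+, then 38.7 and 49.9 in CD8SP. Its stages overlapped (-0.22 ± 0.21; adjusted p = 0.534), and its other 3 probes lay under the filter level. Without CD4intCD8+ replicate 2, DP replicate 1 or DP replicate 2 the count was 0 of 5: Tk1, Dut, Rrm1 and Rrm2 then had adjusted p-values from 0.0869 to 0.122, from 0.0873 to 0.184 and from 0.0746 to 0.128.

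Of the S-phase entry regulators both E cyclins rose, and 1 of 3 E2F genes did on the probe used. Ccne2 had intensities of 69.7 and 72.9 in DP, 143 and 232 in CD4intCD8+, then 149 and 189 in CD8SP, with the DP pair close together and well below the rest. Its change was 1.29 ± 0.22 (adjusted p = 0.0101). Ccne1 read 71.4 and 89.4, 142 and 231 and 187 and 204 in the same order, with DP below every later array, and rose by 1.13 ± 0.22 (adjusted p = 0.0145). E2f3, an activating E2F factor, read 81.8 and 63.4, 114 and 133 and 112 and 121; DP overlapped neither later stage, and the change was 0.73 ± 0.17 (adjusted p = 0.0269). The remaining activating E2F genes were not called: E2f1 had 166 and 129 in DP, 179 and 155 in CD4intCD8+, then 185 and 179 in CD8SP (0.18 ± 0.16; adjusted p = 0.501). E2f2 had 339 and 319.9, 298 and 370.2 and 237 and 329 (0.01 ± 0.18; adjusted p = 0.973). For both the CD4intCD8+ arrays overlapped with DP. Ccne1 and E2f3 lost their calls without CD4intCD8+ replicate 2 (adjusted p = 0.0530 and 0.131), and with Ccne2 also without DP replicate 1 (0.0576 to 0.108) or DP replicate 2 (0.0644 to 0.15).

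At the replication fork's chromatin, Uhrf1, which reads newly copied DNA for maintenance methylation, had 394 and 330.2 in DP, 552 and 779 in CD4intCD8+, then 508 and 714 in CD8SP. DP was below all later arrays, and the change was 0.85 ± 0.20 (adjusted p = 0.03), a call lost without CD4intCD8+ replicate 2 (0.147), DP replicate 1 (0.0919) or DP replicate 2 (0.159). Chaf1b, a subunit of the chromatin assembly factor that places histones on new DNA, had 126 and 142, 173 and 258 and 189 and 241. DP lay below the later stages, and the change of 0.64 ± 0.21 was not called (adjusted p = 0.0749), except with the replicate block (0.00733) and without CD4intCD8+ replicate 1 (0.0155).

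From CD4intCD8+ to CD8SP no replication gene changed by the test. The call counts were 0 higher and 0 lower of 48, with 0 members at an unadjusted p under 0.05, while 0.101% of all genes tested were called higher and 0.0183% lower (11 and 2 genes) and 1049 had an unadjusted p under 0.05. With the replicate block 0 members were called either way, beside 1.26% of all genes higher and 0.824% lower. In that fit 5 members had an unadjusted p under 0.05. With the actin ratio given below as a covariate 8 did, with 0 called and 39 of 48 changes above 0. The median log2 change of the members was -0.03, with a range from -0.31 for Rrm2 to 0.30 for Cdt1, and 19 of 48 were above 0. For each of the 48 the 95% interval of the change lay within a 2-fold rise and a 2-fold fall, the widest bounds being -0.87 and 0.75 on the log2 scale. The arrays of the 2 stages did not overlap in 3 members: E2f1 was higher in CD8SP (20.2% of all genes tested were), and Orc2 and Pcna were lower (18.6%). The sign of the median turned on single arrays. Without CD4intCD8+ replicate 2 the fitted change was above 0 in 39 of 48 members, and without CD4intCD8+ replicate 1 in 7.

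**Figure D3:**
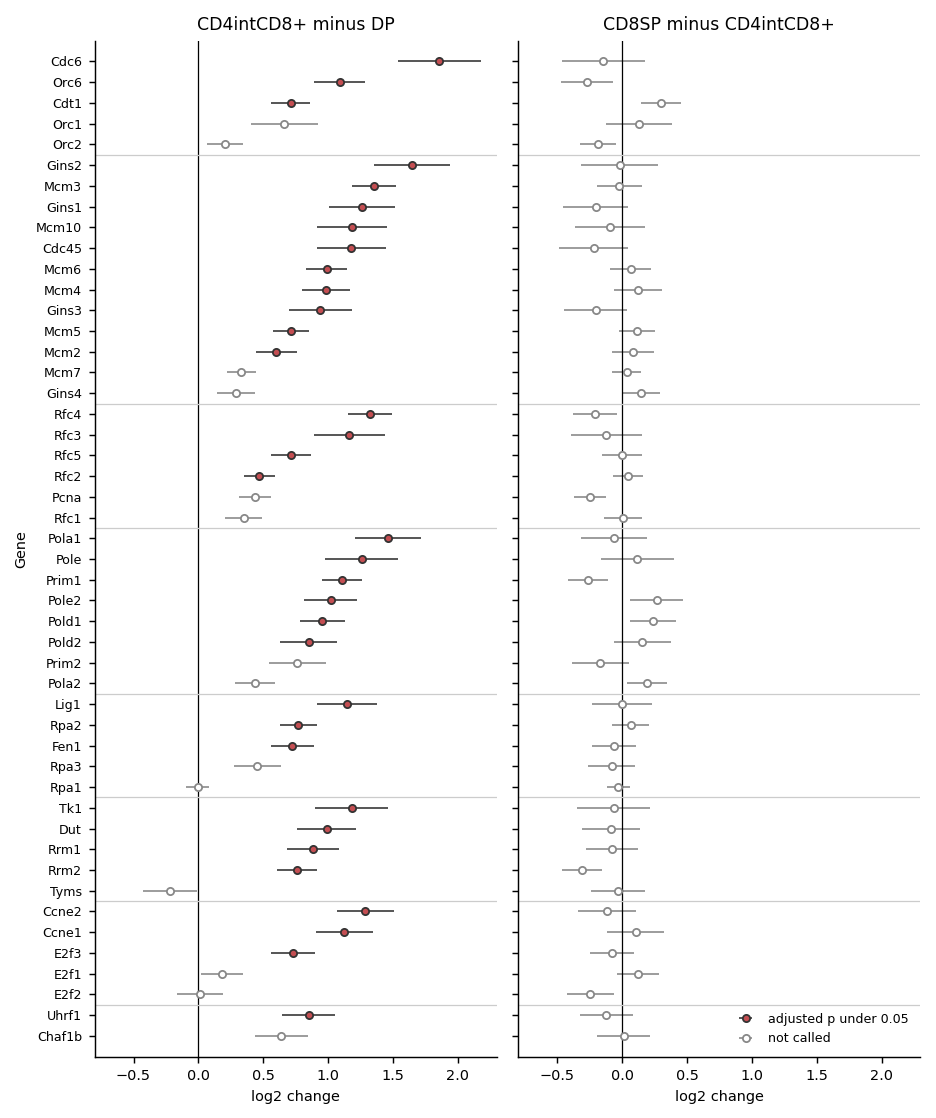
Log2 change of each of the 48 genes with its SE, grouped by role, for CD4intCD8+ minus DP (left) and CD8SP minus CD4intCD8+ (right); filled points have an adjusted p under 0.05. On the left 34 points are filled and reach 1.86, and on the right 0 are filled and all lie between -0.31 and 0.30.

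CD8SP cells also stood above DP, in a comparison that shares its DP arrays with the first one. Here 33 of 48 members were called higher (68.8%) and 0 lower, beside 11.5% and 8.35% of all genes tested, and 19 of them by at least 2-fold; with the replicate block the 43 higher and 0 lower stood beside 16.9% and 13.1%. The median log2 change was 0.82, and in 42 members both CD8SP arrays were above both DP arrays (32.4% of all genes tested). In 32 members both stages after DP were called higher; Gins3 and Rrm2 were called in CD4intCD8+ alone and Pola2 in CD8SP alone, and none of these 3 was called between those stages. With the replicate block all 3 were called at both stages, Gins3 with an adjusted p of 0.00208 in CD4intCD8+ and 0.00519 in CD8SP, Rrm2 with 0.00144 and 0.0143, and Pola2 with 0.0398 and 0.00571. By role the CD8SP cells were higher in 3 of 5 licensing genes, 9 of 12 helicase genes, 4 of 6 clamp genes, 7 of 8 polymerase genes, 3 of 5 single-strand and lagging-strand genes, 3 of 5 nucleotide genes, 3 of 5 regulators and 1 of 2 chromatin genes. The largest changes were those of Cdc6 (1.71 ± 0.32; adjusted p = 0.00685), Gins2 (1.63 ± 0.30; 0.0057), Pola1 (1.40 ± 0.25; 0.00566), Pole (1.38 ± 0.28; 0.00976) and Mcm3 (1.33 ± 0.17; 0.00108). Without DP replicate 1 there were 13 members called higher (5.94% of all genes tested), without DP replicate 2 there were 18 (5.48%) and without CD8SP replicate 2 there were 16 (5.56%). Mcm3, Mcm4, Mcm5, Mcm6, Rfc4, Prim1, Pold1 and Rpa2 were called in CD8SP under each of the 16 alternative settings, and Mcm3, Rfc4 and Prim1 in CD4intCD8+ too.

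The replicates of the later stages differed in 1 direction. Replicate 2 exceeded replicate 1 in 46 of 48 members in CD4intCD8+ and in 47 in CD8SP, against 54.6% and 53% of all genes tested, and in 32 of 48 in DP (47.7%). As a median over the members, the level above the DP mean was 0.62 on CD4intCD8+ replicate 1 and 1.10 on replicate 2, and in CD8SP it was 0.66 and 0.98. The ratio of 3' to 5' signal of the actin control probes, a measure of RNA integrity, moved with it: it was 1.98 and 2.14 in DP, and then 2.37 and 3.47 in CD4intCD8+, and 2.28 and 2.62 in CD8SP. For the Gapdh control probes the DP arrays had ratios of 1.37 and 1.53, the CD4intCD8+ arrays 1.42 and 1.99, and the CD8SP arrays 1.40 and 1.48. This ratio too was highest on CD4intCD8+ replicate 2, and the other 3 later arrays lay below DP replicate 2. The actin ratio, in contrast, was above both DP arrays on every later array. With the log2 of the actin ratio as a covariate, 4 members were called higher in CD4intCD8+ (Cdc6, Mcm3, Rfc4 and Prim1), beside 2.18% of all genes tested. The median log2 change of the 48 members was then 0.40. In CD8SP 31 members were called higher in this fit, beside 10.8% of all genes tested. As the actin ratio also rose from DP to the later stages, this fit cannot tell its part from that of stage. The part of RNA quality in the difference between the replicates, and between DP and the later stages, was not tested.

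**Figure D4:**
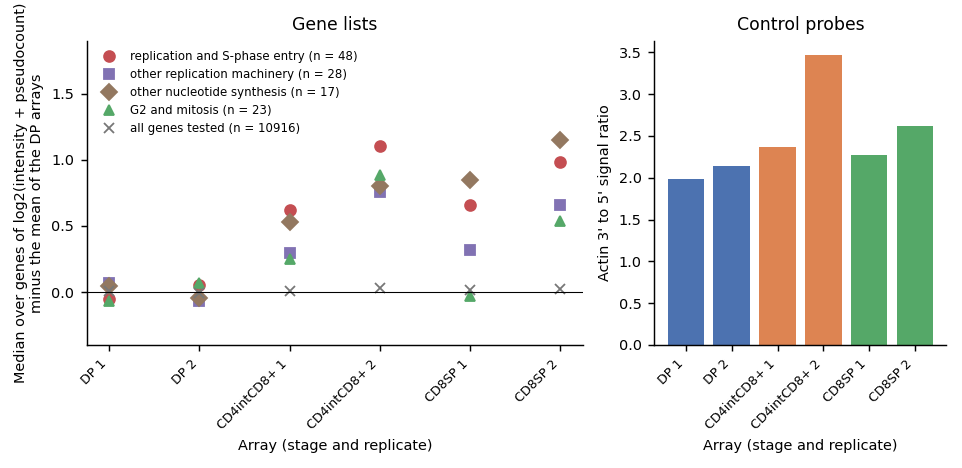
Left, the median over the genes of each list of log2(intensity + pseudocount) minus the mean of the DP arrays, for each of the 6 arrays; right, the actin 3' to 5' signal ratio of the same arrays. The replication genes reach 1.10 on CD4intCD8+ replicate 2, which has the highest ratio, 3.47, and are also above the DP arrays on CD4intCD8+ replicate 1 (0.62), whose ratio is 2.37.

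**Figure D5:**
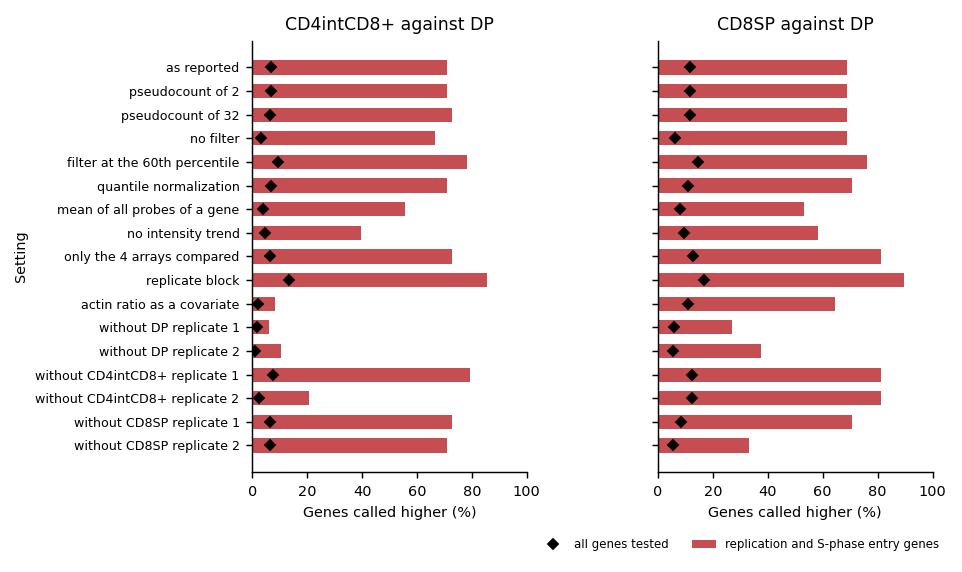
Percent of the 48 members (bars; 45 or 46 where a setting removed some) and of all genes tested (diamonds) called higher than DP, in CD4intCD8+ (left) and CD8SP (right), under the reported settings and 16 alternatives. The members' share lies above that of all genes in every row, from 3 called members without DP replicate 1 to 41 with the replicate block on the left.

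Repeat probes gave a further reading of the same RNA. The members had 56 probes besides those used, of which 38 were above the filter level, and 35 of these 38 had the same sign of change from DP to CD4intCD8+. Both Gins2 probes gave nearly equal changes (1.65 and 1.61), as did those of Rfc4 (1.33 and 1.42), Prim1 (1.11 and 1.13) and Rpa1 (-0.01 and -0.01), while the 5 Mcm3 probes ranged from 0.63 to 1.61. In 8 of the 38 the change differed from that of the probe used by more than 0.5. Besides 2 Mcm3 probes these were probes of Cdc45 (1.18 for the probe used and 0.36 for the other), Rpa2 (0.77 and 0.08), Chaf1b (0.64 and -0.07), Rfc3 (1.16 and 0.59), Uhrf1 (0.85 and 0.32) and E2f1. The 3 probes of opposite sign belonged to Chaf1b, Rfc1 (0.35 and -0.08) and E2f2 (0.01 and -0.25). For E2f1 the probe used changed by 0.18 and a dimmer one by 0.95, with the CD4intCD8+ arrays above DP on the latter. For E2f3 the probe used changed by 0.73 and a dimmer one by 0.24, on which the CD4intCD8+ and DP arrays overlapped. E2f3 was not called with the mean of all probes.

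Other genes of the replication machinery, from a list of 28 that holds checkpoint, fork protection and loading factors, rose in 9 members and fell in 0 from DP to CD4intCD8+, with a median of 0.49 (0.29 without CD4intCD8+ replicate 2). All genes tested were called higher in 6.86% of cases. Tipin, a fork protection factor, rose by 1.30 ± 0.18 (adjusted p = 0.00494), from 268 and 334 in DP to 634 and 872 in CD4intCD8+. Dna2, a nuclease of flap processing, rose by 1.20 ± 0.30 (adjusted p = 0.0348), and Gmnn, which encodes the licensing inhibitor geminin, by 1.19 ± 0.23 (adjusted p = 0.013). Chtf18, of an alternative clamp loader, changed by 1.14 ± 0.37 and was not called (adjusted p = 0.0788; 0.00944 with the replicate block, under which 15 of the 28 were called, beside 13.3% of all genes). The fit without CD4intCD8+ replicate 2 called 4 of the 28, beside 2.55%. Dna2 lost its call without that array (0.141), DP replicate 1 (0.132) or DP replicate 2 (0.159), and Gmnn without DP replicate 1 (0.0953) or DP replicate 2 (0.0668).

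Of 20 further genes of nucleotide synthesis, 17 were tested, and 10 rose and 1 fell, with a median of 0.65, beside 6.86% higher and 4.84% lower over all genes tested. The replicate block gave 11 higher and 1 lower, beside 13.3% and 10.1%. Mthfd1, an enzyme of folate metabolism, read 73.6 and 68.6 in DP, 219 and 279 in CD4intCD8+, then 227 and 342 in CD8SP, and rose by 1.72 ± 0.21 (adjusted p = 0.0029). Cad, which starts pyrimidine synthesis, rose by 1.40 ± 0.27 (adjusted p = 0.0146), Dctpp1 by 1.17 ± 0.32 (0.0495) and the mitochondrial folate enzyme gene Mthfd2 by 1.10 ± 0.20 (0.0108). The gene that fell was Dck, deoxycytidine kinase, by 0.73 ± 0.12 on the log2 scale (adjusted p = 0.00798; named after its value was seen). Samhd1, which degrades deoxynucleotides, was the 1 gene of this list called from CD4intCD8+ to CD8SP: 68.3 and 55.4 in the former and 226 and 322 in the latter, a change of 2.03 ± 0.21 (adjusted p = 0.0145; named after its value was seen), which was not called when the probes of a gene were averaged (1.31; 0.118). With the replicate block 2 genes of the list were called higher from CD4intCD8+ to CD8SP, beside 1.26% of all genes. Without CD4intCD8+ replicate 2 fewer were called higher from DP to CD4intCD8+, as over all genes tested, and a fall was still called. Cad (0.0515) and Dctpp1 (0.192) were not called without that array, Cad (0.0856) and Dctpp1 (0.272) without DP replicate 1, and Cad (0.0898), Dctpp1 (0.0771), Mthfd2 (0.0793) and Dck (0.0624) without DP replicate 2.

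A list of 24 other regulators of S-phase entry and exit moved both ways, with 3 genes higher and 4 lower of 22 tested, beside 6.86% and 4.84% of all genes. Its median was 0.26, and 0.09 without CD4intCD8+ replicate 2. Myc, a growth-promoting transcription factor, had 43.8 and 27.8 in DP, 95.4 and 116 in CD4intCD8+, then 201 and 171 in CD8SP and rose by 1.44 ± 0.21 (adjusted p = 0.00586). E2f6, a repressive E2F factor, rose by 0.90 ± 0.19 (adjusted p = 0.0198). Skp2, which targets the inhibitor encoded by Cdkn1b for destruction, changed by 1.06 ± 0.31 and was not called (adjusted p = 0.0553). Skp2 was called with the replicate block (0.002), which gave 8 higher and 4 lower, beside 13.3% and 10.1% of all genes. Those that fell were inhibitors of cell cycle entry: Cdkn2d (by 0.90 ± 0.20; adjusted p = 0.0223) and, named after their values were seen, Cdkn1b (by 0.61 ± 0.17; 0.0494), and the retinoblastoma family genes Rbl2 (by 0.58 ± 0.14; 0.0284) and Rb1 (by 0.49 ± 0.13; 0.0432). Without CD4intCD8+ replicate 2 the falls were not called and fewer rises were, and over all genes tested fewer were called both ways. Myc kept its call without any 1 array. Without CD4intCD8+ replicate 1, Cdkn1b, Rbl2 and Rb1 were not called (adjusted p from 0.0719 to 0.134). The 4 that fell also lost their calls without DP replicate 1 (adjusted p from 0.112 to 0.230) or DP replicate 2 (0.0677 to 0.182), and E2f6 without DP replicate 2 (0.110) or CD4intCD8+ replicate 2 (0.0708).

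Other chromatin genes of the fork, 13 on the array, rose in 5 cases and fell in 0 (median 0.38), beside 6.86% and 4.84% of all genes. The replicate block gave 6 higher and 0 lower, beside 13.3% and 10.1%. Hells, a chromatin remodeller needed for DNA methylation, read 69.7 and 66.2 in DP, 191 and 266 in CD4intCD8+, then 234 and 284 in CD8SP, and its change of 1.65 ± 0.18 (adjusted p = 0.00217) was kept without any 1 array. Slbp, which binds histone messages, rose by 0.71 ± 0.12 (adjusted p = 0.00865), and the histone chaperone genes Asf1b and Nasp by 0.69 ± 0.16 (0.0249) and 0.66 ± 0.13 (0.014). Without CD4intCD8+ replicate 2 Hells alone of the 13 was called. Without DP replicate 2 Slbp (0.0664), Asf1b (0.0813) and Nasp (0.0799) were not called, and without DP replicate 1 neither Asf1b (0.148) nor Nasp (0.0782) was.

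Genes of G2 and mitosis were mostly above DP at the CD4intCD8+ stage without being called. Of 23 on the array, 2 rose from DP to CD4intCD8+ (Ttk, 1.47 ± 0.29, adjusted p = 0.0155, and Bub1, 1.14 ± 0.20, 0.0103, both mitotic checkpoint kinases), close to the 6.86% of all genes tested, and 16 were called with the replicate block, beside 13.3%. The median was 0.57, and 0.25 without CD4intCD8+ replicate 2. Kif20a (1.06 ± 0.33) and Aurkb (0.93 ± 0.30), of cell division, were not called (adjusted p = 0.0682 and 0.0773; 0.00436 and 0.00491 with the block). From CD4intCD8+ to CD8SP the median of the 23 was -0.37 with 0 above 0 and 0 called, beside -0.03 for the replication genes. With the block 1 was called lower, beside 0.824% of all genes. Without CD4intCD8+ replicate 2 the median was -0.05 for the 23 and 0.19 for the replication genes. CD8SP cells had 1 of the 23 called higher than DP and 1 lower, shares below the 11.5% and 8.35% of all genes. The replicate block gave 7 higher and 1 lower, beside 16.9% and 13.1%. Without CD4intCD8+ replicate 2, DP replicate 1 or DP replicate 2 Ttk was not called (adjusted p = 0.0530, 0.112 and 0.0680), and Bub1 was not called without DP replicate 1 (0.0690) or DP replicate 2 (0.0674).

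The coreceptor and recombination genes marked the stages: Cd4 was 351 and 515 in DP and between -68.6 and 11.8 later, and Rag1 was 1046 and 1054 in DP and between 57.8 and 134 later. Median intensity lay between 24.9 and 25.7 on each array. Markers of immature thymocytes that divide before the DP stage were summed over 12 genes, of which 5 passed the filter and none was at or below 0. The sums were 2395 to 2618 in DP, 2439 to 2439.6 in CD4intCD8+ and 2353 to 2402 in CD8SP. Of the 5 tested, 2 were called higher than DP in CD4intCD8+ (median 0.61), beside 6.86% of all genes tested. In CD8SP 2 were called higher (median 0.48) and 1, Cd24a, lower, beside 11.5% and 8.35% of all genes tested. The 2 called higher, named like Cd24a after their values were seen, were the same in both stages. They were Dtx1, a target of Notch (0.90 ± 0.17 in CD4intCD8+; adjusted p = 0.013), and Igll1 (0.69 ± 0.16; 0.0261). In CD4intCD8+ neither call was kept without DP replicate 1 or DP replicate 2, nor that of Igll1 without CD4intCD8+ replicate 1 or 2. Under the replicate block Cd24a was also called lower in CD4intCD8+ (adjusted p = 0.0216), and Dtx1 higher in CD8SP than in CD4intCD8+ (0.00686). All genes tested were called so in 10.1% and 1.26% of cases. Among these markers the pre-receptor gene Ptcra had 41.4 and 49.9 in DP, 42.9 and 119.9 in CD4intCD8+, then 37.9 and 111 in CD8SP. It was higher on replicate 2 of both later stages. Il2ra, which did not pass the filter and is too dim to compare, stayed between 19.0 and 34.3. The part of such cells in the result was not tested. Summed natural killer markers, 7 on the array, were 1009 to 1157 in DP and 2614 to 3350.2 later, mostly Gzma and Klrd1; their part was not tested. Sums of B cell markers were 1863 to 2587, of myeloid and dendritic markers 275 to 347, of epithelial markers 149 to 184 and of erythroid markers 129 to 198 over the 6 arrays.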

How the data were processed

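Total RNA of 3 sorted thymocyte populations was converted to biotin-labelled cRNA, per the labels' protocols, and read on 6 arrays. Each of 45101 probes, 64 of them controls, has a deposited linear intensity for every array. The software, background correction and scaling by which the authors obtained the intensity values are not given in the sources used here. Per array 2.78% to 4.33% of values were negative, so that a signal had been subtracted, and the medians of 24.9 to 25.7 place the arrays on a common scale. Subtraction makes dim values uncertain, and scaling hides a change in total RNA per cell.

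Of the probes, 34945 have 1 gene symbol in the platform annotation. For each of 18193 genes the probe with the highest mean log2 level was used. Negative values were raised to 0, and the log2 of the intensity plus 5.84 was analysed, this pseudocount being the 10th percentile of positive values, so that changes of dim genes are understated. Genes under the 40th percentile were left out (7277). All 6 arrays were fitted by stage with limma 3.58.1 (R 4.3.3, statmod 1.5.0; lmFit, eBayes with an intensity trend; 3 residual and 6.05 prior degrees of freedom), with Benjamini-Hochberg adjustment over the 10916 genes and calls at an adjusted p under 0.05. Values after ± are standard errors unless marked SD; their median was 0.17. The number of arrays limits the precision. The fitting code was tested on simulated data.

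The numbers in the sample titles were taken to pair the arrays: the labels name 2 independent experiments, and after subtraction of stage means same-numbered arrays deviated together across genes (correlations of 0.26, 0.21 and 0.30). The counts of members called are therefore also given with the replicate block, as are some calls of other genes.

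The members, the lists of other genes and the tests were chosen with earlier results of these data known. Named genes are, per role, the 3 members with the largest change from DP to CD4intCD8+ and, per other list, the 4 with the largest; further names complete a count of members or are said to have been picked with their values in view. Alternatives were pseudocounts of 2 and 32, no filter or the 60th percentile, quantile normalization, the mean of all probes, no trend, 4 arrays, the replicate block, the actin ratio and each array left out. Promoters are RefSeq's (GRCm38.p6), matched by symbol.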

Additional observations from a re-analysis of the deposited data

How the results depend on the processing

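The 34 calls in CD4intCD8+ and 33 in CD8SP against DP kept their sign under each of the 16 alternatives, but not their side of the threshold. In CD4intCD8+ the count was 19 with no intensity trend and, once the actin ratio was a covariate, 4 (median change 0.40); with 1 array left out it was between 3 and 38 (median from 0.62 to 1.10). In CD8SP it was between 13 and 39 with 1 array left out. With the replicate block the counts were 41 and 43, beside 13.3% and 16.9% of all genes tested. This pairing left the second step at 0. Of all genes tested, 6.86% were called higher in CD4intCD8+ as reported, 4.56% with no intensity trend and 2.18% with the actin ratio. At the lowest counts with 1 array left out, the shares of all genes, given above, also lay below the reported 6.86% and 11.5%. At the highest counts with 1 array left out, the shares of all genes lay above these reported values. Members near 0 changed sign. From DP to CD4intCD8+ these were Orc2 (-0.039 with the mean of all probes), Rpa1 (0.071 after quantile normalization, and from -0.074 to 0.063 with 1 array left out) and E2f2 (-0.12 with the mean of all probes, -0.32 with the actin ratio, and from -0.14 to 0.17 with 1 array left out). In CD8SP against DP they were Orc2 (-0.016 after quantile normalization, -0.052 with the mean of all probes, -0.059 with the actin ratio, and from -0.011 to 0.043 with 1 array left out), Rpa1 (0.067 after quantile normalization, and from -0.10 to 0.034 with 1 array left out) and E2f2 (from -0.46 to 0.00028 with 1 array left out). At the second step Cdt1 was at -0.00449 with the mean of all probes. The cause was not tested. Under the filter were Tyms and Orc1 at the 60th percentile, and Tyms, Mcm10 and Pola2 with the mean of all probes.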
